A study of Homo sapiens with 2 samples.

Results

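RNA immunoprecipitation and sequencing (RIP-seq) in PLC/PRF5 cells gave a list of regions, called peaks, where RNA captured with MTR4 was found, and the peaks in 10 genes of the cell cycle and of DNA replication are described. PLC/PRF5 is an established hepatocellular carcinoma cell line. The cells overexpressed MTR4 with an HA tag from a plasmid, and this held for both libraries, 1 made with an anti-HA antibody and 1 with control IgG from lysed nuclei. In its title the IgG library is described as an input. With 1 library per antibody and 1 deposited list, of the anti-HA library, no value has a replicate and the antibodies cannot be compared. The 10 genes were chosen from the list itself, because each holds a peak, and a peak was counted in a gene if it shared at least 1 base with the span of BUB1B, STAG1, CCNB2, CDC25A, CDK6, TFDP2, MCM2, MCM5, CDC45 or PCNA in GENCODE release 44 on hg19. The rule found 24 of the 3304 listed peaks. That all 10 genes hold a peak is therefore no finding. Over the whole genome 6.97% of 20136 protein-coding genes held a peak, and on the 6 chromosomes with at least 20 peaks each the share was 32.1% of 4358 genes. All 10 genes lie on 5 of these chromosomes, with 4 genes on chromosome 3, 2 each on chromosomes 15 and 22, and 1 each on chromosomes 7 and 20. The share differed widely among the 5, at 49.1% on chromosome 3, 47.9% on 15 and 53.8% on 22, but 11.2% on 20 and 4.08% on 7. The list gives no expression value, so the identity of the cells was not checked against marker genes.

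MTR4 is an RNA helicase of the nucleus that feeds RNAs to the exosome, the complex that trims or degrades them. The genes described act in sequence through the division cycle. Cyclins and cyclin-dependent kinases drive the steps, phosphatases of the CDC25 family switch the kinases on, and E2F factors with their DP partners transcribe the genes that S phase needs. The MCM ring with CDC45 unwinds DNA at the fork, and the PCNA clamp holds polymerases on it. Cohesin then keeps sister chromatids together until the spindle checkpoint allows them to part. The precursors of these mRNAs carry many introns, and an exon is recognised by the short signals at its borders, an AG that ends the intron before it and a GT (GU in RNA) that opens the intron after it.

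The sequences printed first are those of whole internal exons inside peaks, since they show what such a peak spans. Of the 24 peaks, 9 held a complete internal exon of the canonical transcript with intron on either side (37.5%, Wilson 95% CI 21.2 to 57.3, counting error only), beside 24.6% of the peaks in other protein-coding genes, and 8 of these exons were coding over their whole length. They are printed on the strand of the gene from hg19, with the exon in capitals and up to 30 bases of the flanking introns, as far as the peak reaches, in lower case.
STAG1 exon 6, chr3:136260931-136261067: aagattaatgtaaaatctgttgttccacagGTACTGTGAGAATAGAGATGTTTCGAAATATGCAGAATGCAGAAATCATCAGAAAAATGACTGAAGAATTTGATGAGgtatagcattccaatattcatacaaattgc
STAG1 exon 10, chr3:136196101-136196284: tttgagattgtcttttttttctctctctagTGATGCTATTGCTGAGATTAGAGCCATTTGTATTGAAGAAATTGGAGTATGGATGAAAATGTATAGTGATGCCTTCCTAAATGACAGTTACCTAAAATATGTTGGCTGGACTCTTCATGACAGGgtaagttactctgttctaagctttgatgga
STAG1 exon 15, chr3:136162099-136162276: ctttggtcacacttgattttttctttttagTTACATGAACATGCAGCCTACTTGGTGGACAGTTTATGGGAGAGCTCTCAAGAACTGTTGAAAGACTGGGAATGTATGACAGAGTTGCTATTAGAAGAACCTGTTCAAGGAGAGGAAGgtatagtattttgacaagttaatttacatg
BUB1B exon 2, chr15:40457224-40457427: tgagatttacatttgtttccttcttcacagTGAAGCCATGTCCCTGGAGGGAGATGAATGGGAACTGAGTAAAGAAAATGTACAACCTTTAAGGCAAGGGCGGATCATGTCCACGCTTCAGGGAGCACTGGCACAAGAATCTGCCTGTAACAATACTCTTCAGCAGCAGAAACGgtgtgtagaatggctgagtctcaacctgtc
BUB1B exon 5, chr15:40468648-40468881: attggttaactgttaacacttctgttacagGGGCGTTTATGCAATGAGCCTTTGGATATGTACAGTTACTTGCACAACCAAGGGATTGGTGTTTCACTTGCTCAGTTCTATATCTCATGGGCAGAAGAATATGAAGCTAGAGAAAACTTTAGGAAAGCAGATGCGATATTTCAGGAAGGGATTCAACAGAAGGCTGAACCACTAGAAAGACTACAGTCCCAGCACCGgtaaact
CDC25A exon 10, chr3:48209306-48209464: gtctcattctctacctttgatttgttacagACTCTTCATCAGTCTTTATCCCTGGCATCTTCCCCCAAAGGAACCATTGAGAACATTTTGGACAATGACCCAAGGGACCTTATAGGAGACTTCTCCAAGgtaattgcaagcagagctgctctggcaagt
CDC45 exon 13, chr22:19496023-19496244: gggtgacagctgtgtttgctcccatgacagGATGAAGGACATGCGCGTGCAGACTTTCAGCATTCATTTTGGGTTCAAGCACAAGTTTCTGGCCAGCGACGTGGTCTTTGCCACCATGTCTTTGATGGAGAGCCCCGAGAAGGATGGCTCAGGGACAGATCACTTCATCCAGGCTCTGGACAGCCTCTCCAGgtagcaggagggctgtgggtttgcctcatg
MCM5 exon 3, chr22:35799170-35799356: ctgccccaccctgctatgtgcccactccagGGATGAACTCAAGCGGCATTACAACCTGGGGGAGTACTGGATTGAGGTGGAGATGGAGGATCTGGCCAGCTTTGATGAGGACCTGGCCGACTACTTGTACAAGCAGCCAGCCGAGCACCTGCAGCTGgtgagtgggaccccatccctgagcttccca
The STAG1, CDC25A and PCNA genes lie on the − strand, and BUB1B, CDC45 and MCM5 on the + strand. The exon not printed is STAG1 exon 2, most of which is 5' UTR. All 9 exons were preceded by AG and followed by GT. The 9 exons were 77 to 197 bases long with a median of 124 bases, and the length of 3 of them was a multiple of 3. Pyrimidines made up 46.7% to 76.7% of the 30 intron bases before the exon, with a median of 66.7%, which is also the median before 666 whole internal exons in peaks of other protein-coding genes.

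The peaks were then placed along each gene. In the rest of the text exons and introns are numbered from the start of the canonical transcript, and a position in percent runs from 0 at its start to 100 at its end, in genomic distance. By the base at its midpoint, 11 of the 24 peaks lay in a coding exon, 7 in an intron, 3 in the 5' UTR and 3 in the 3' UTR. Every gene held at least 1 peak with exon bases, and 19 of the 24 peaks had them (79.2%, Wilson 95% CI 59.5 to 90.8, counting error within this list only). Exon sequence made up 42.2% of the 9600 peak bases and 32.6% of the bases of peaks in other protein-coding genes, whereas canonical exons make up 4.40% of the 1059153 bases that the 10 transcripts span.

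**Figure D1:**
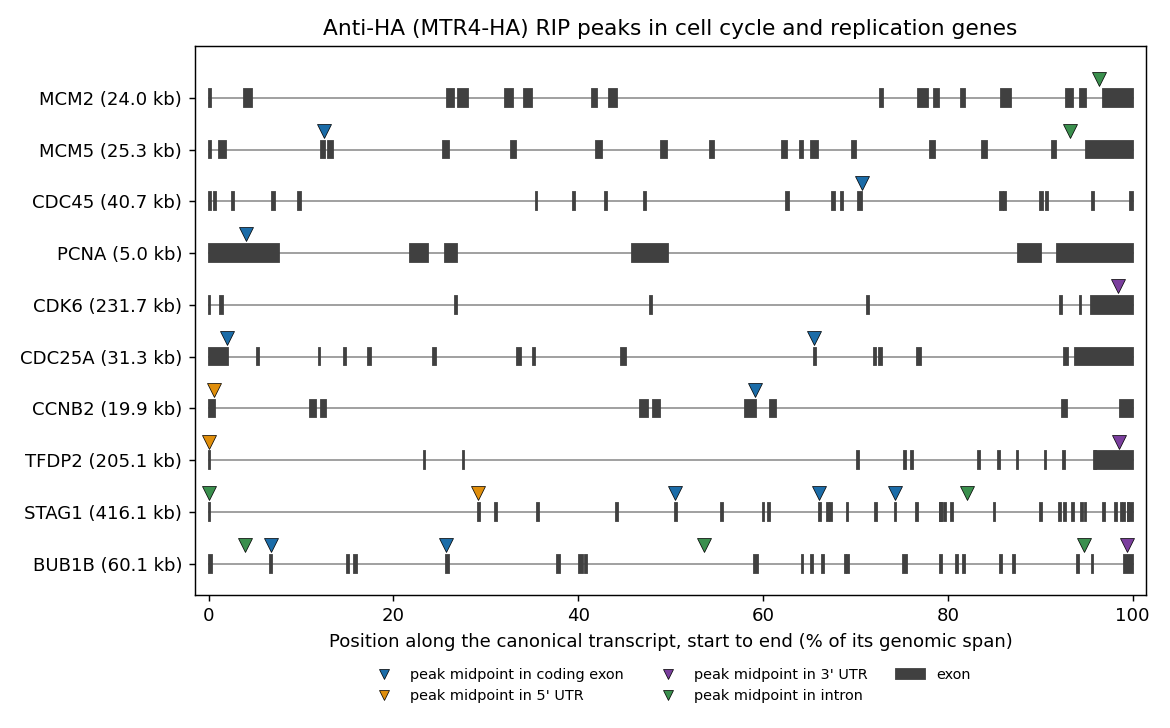
Each row is a gene drawn as its canonical transcript from start to end, with the position in percent of its genomic span on the x axis, exons as dark boxes and each peak as a triangle coloured by the feature at its midpoint. The 6 peaks of STAG1 were spread from 0.0526% to 82.1%.

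For replication, MCM2 and MCM5, subunits of the helicase ring, were described first. MCM2 (ENSG00000073111, chromosome 3, 127317253 to 127341279, + strand) held 1 peak, at chr3:127340202-127340601. Its midpoint lay in intron 15, the last of 15 introns and only 434 bases long, and its last 96 bases were the first coding bases of the final exon. The peak sat at 96.3% of the transcript. It also overlapped an exon of an annotated antisense long noncoding RNA, ENSG00000285600, and because the list gives + for every peak the strand of the captured RNA cannot be told apart.

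MCM5 (ENSG00000100297, chromosome 22, 35796127 to 35821424, + strand) held 2 peaks. Peak 3284 (chr22:35799102-35799501) lay at 12.5% and held the whole of exon 3, printed above, and 95 of the 129 bases of exon 4, with the whole of intron 3 between them. Peak 3290 (chr22:35819502-35819901) lay at 93.2% inside intron 16, the last intron, which is 812 bases long, and touched no canonical exon. All 400 of its bases lie in an exon of another annotated MCM5 transcript, of the retained intron type. Both MCM genes thus had a peak over the last intron, with the final exon included in MCM2 and left out in MCM5.

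CDC45, the helicase partner loaded when origins fire (ENSG00000093009, chromosome 22, 19466980 to 19508135, + strand), held 1 peak at chr22:19496002-19496401. The peak contained exon 13 of 19, 162 bases long, with 51 bases of intron 12 before it and 187 bases of intron 13 after it. Exons are 4.62% of the span of the CDC45 transcript and were 40.5% of the peak. PCNA, the sliding clamp (ENSG00000132646, chromosome 20, 5095599 to 5107272, − strand), held 1 peak at chr20:5100202-5100601. This peak covered 378 of the 381 bases of exon 1, namely 157 bases of 5' UTR and all 221 coding bases, and 22 bases of intron 1. The coding part and the start of the intron are printed because the peak runs from the transcript start across the start codon to the splice site, with the coding bases in capitals.
PCNA exon 1 from the start codon, chr20:5100202-5100444: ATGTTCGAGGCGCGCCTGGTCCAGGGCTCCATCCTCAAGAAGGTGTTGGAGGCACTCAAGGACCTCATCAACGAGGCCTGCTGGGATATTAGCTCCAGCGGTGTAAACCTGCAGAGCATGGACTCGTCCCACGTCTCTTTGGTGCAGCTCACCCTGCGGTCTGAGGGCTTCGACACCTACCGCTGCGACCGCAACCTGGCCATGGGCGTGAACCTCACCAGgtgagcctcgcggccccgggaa
The 4 replication genes had 5 peaks in all, and 4 of them held exon bases.

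Among the regulators of kinases, CDC25A, the phosphatase that activates cyclin-dependent kinases (ENSG00000164045, chromosome 3, 48198636 to 48229907, − strand), held 2 peaks. Peak 4246 (chr3:48229102-48229501) lay at 1.94% and held the start codon, with 64 bases of 5' UTR, 170 coding bases of exon 1 and 166 bases of intron 1. Peak 4245 (chr3:48209202-48209601) lay at 65.6% and contained exon 10 of 15, with the centre of the exon 16.5 bases from that of the peak. Exon 10 is 99 bases long, and the remaining 301 bases of the peak were intron. Both CDC25A peaks thus held an exon together with intron.

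CCNB2, cyclin B2 of mitosis (ENSG00000157456, chromosome 15, 59397325 to 59417244, + strand), also held 2 peaks. Peak 2210 (chr15:59397252-59397651) contained all 147 bases of exon 1 with the start codon, and 73 of its bases lay before the annotated gene. Peak 2211 (chr15:59408907-59409306), at 59.1%, held 219 of the 237 bases of exon 6. This exon has a close copy in a processed pseudogene, CCNB2P1, where 218 bases matched at 93.6% identity, so the assignment of this peak to CCNB2 is uncertain. CDK6, a kinase of the G1 phase (ENSG00000105810, chromosome 7, 92234235 to 92465887, − strand), held 1 peak at chr7:92237707-92238106. It lay at 98.4% within exon 8, whose 10366 bases hold the long 3' UTR, and all 400 bases were 3' UTR. The 231.7 kb gene thus had no listed peak in any intron.

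TFDP2, a DP partner of E2F factors (ENSG00000114126, chromosome 3, 141663270 to 141868386, − strand), held 1 peak at either end of its 205.1 kb span and none between them, with 201600 bases separating the peaks. Peak 4896 (chr3:141868002-141868401) covered the whole of exon 1, 362 bases of 5' UTR, and 15 bases before the gene. Peak 4895 (chr3:141666002-141666401) lay at 98.6% inside exon 13, with all 400 bases in the 3' UTR. Stretches of peak 4895 of at least 100 bases were found at 9107 other places of the genome at 90% identity or more, so reads from this peak could map to other places too.

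STAG1, a subunit of cohesin (ENSG00000118007, chromosome 3, 136055078 to 136471245, − strand), and BUB1B, the spindle checkpoint protein BubR1 (ENSG00000156970, chromosome 15, 40453224 to 40513324, + strand), held 6 peaks each. Of the 4358 protein-coding genes on the 6 chromosomes with at least 20 peaks, 2.2% held 6 or more. The STAG1 span is 416.2 kb and that of BUB1B 60.1 kb, which gives 1.44 and 9.98 peaks per 100 kb, beside 1.25 and 1.76 over all protein-coding genes of chromosomes 3 and 15. Since these genes were chosen for their peaks, the densities are descriptions.

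Of the 6 STAG1 peaks, 5 held an exon, although exons are 1.46% of the span of the transcript. Peak 4868 (chr3:136470802-136471201) covered 165 of the 184 bases of exon 1, all 5' UTR, and the start of intron 1, which is 121213 bases long and the longest intron of the gene. Peak 4867 (chr3:136349602-136350001) contained exon 2 with the start codon, 83 bases of 5' UTR and 29 coding bases. Peaks 4866 (chr3:136260802-136261201), 4865 (chr3:136196002-136196401) and 4864 (chr3:136162002-136162401) contained exons 6, 10 and 15, with the centre of the exon 2.5, 9.0 and 14.0 bases from the centre of the peak. Peak 4863 (chr3:136129402-136129801) was the exception and lay in intron 21, 6925 bases from the nearest splice site. The 6 peaks lay 32200 to 120800 bases apart. Their starts share the same last digits, so peak edges appear to lie on a fixed grid. Distances of a few bases between an exon and a peak centre are therefore not resolved.

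In BUB1B, 3 of the 6 peaks held exon bases. Peak 1866 (chr15:40457142-40457541) contained exon 2 and peak 1868 (chr15:40468482-40468881) contained exon 5, with 7 intron bases after it. Peak 1873 (chr15:40512792-40513191) lay in exon 23, the last, at 99.4%, and spanned the stop codon with 166 coding bases and 234 bases of 3' UTR. The other 3 peaks touched no exon of any BUB1B transcript. Peak 1865 (chr15:40455462-40455861) lay in intron 1, peak 1869 (chr15:40485282-40485681) in intron 8, the longest of the 22 introns with 10902 bases, and peak 1872 (chr15:40509957-40510356) in intron 21, 88 bases from a splice site. Peaks 1872 and 1873 also lie within the annotated span of PAK6, and peak 1873 overlaps an exon of the read-through gene BUB1B-PAK6, both on the same strand, so reads there cannot be assigned to BUB1B alone.

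**Figure D2:**
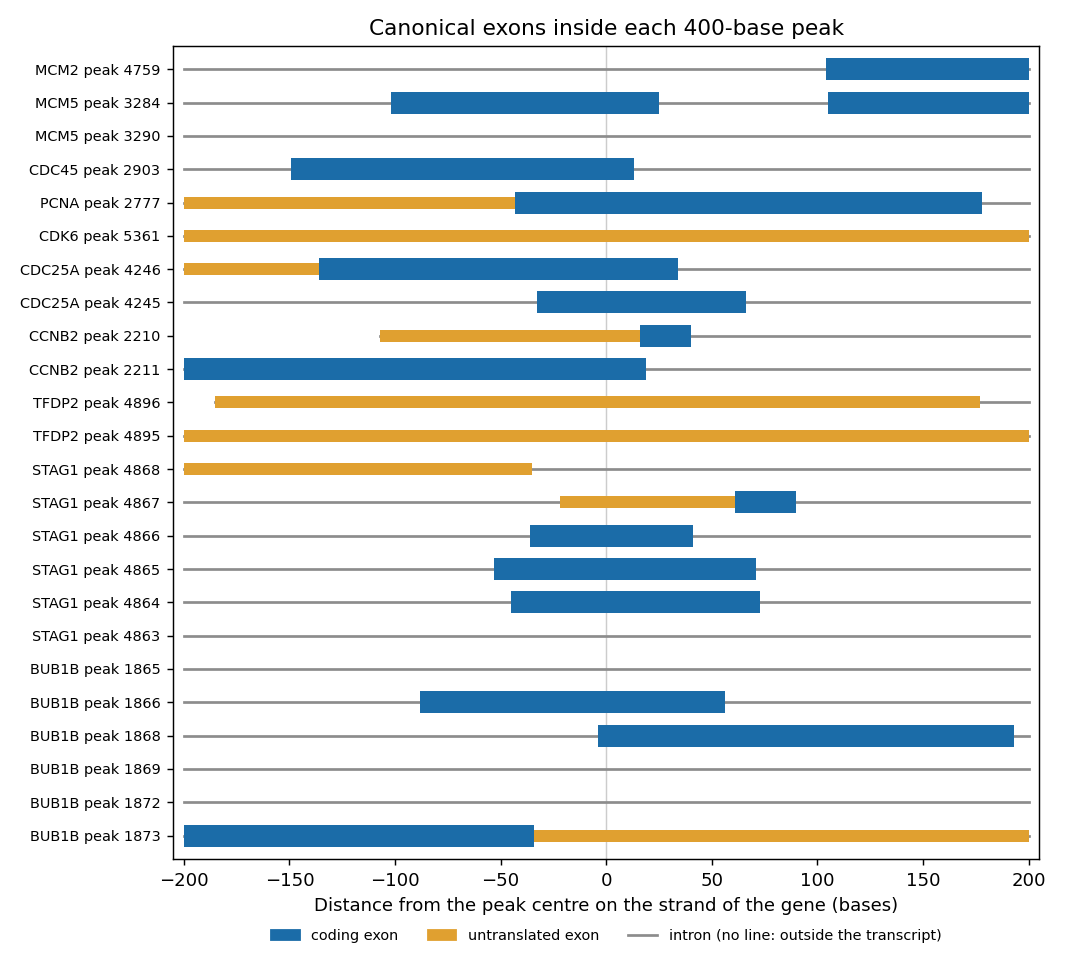
Each row is 1 of the 24 peaks, drawn around its centre on the strand of the gene, with distance from the centre in bases on the x axis, coding exon as a tall blue box, untranslated exon as a low orange box and intron as a line. In 5 rows there is no exon, in 3 rows exon fills the whole peak, and the single exons of STAG1 peaks 4864, 4865 and 4866 sit within 14.0 bases of the centre. Peak edges appear to lie on a fixed grid, so small offsets are not resolved.

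The members were compared with the 2804 other peaks whose midpoint lies in the canonical transcript of a protein-coding gene. Member peaks were classed in the member gene and other peaks in the longest such gene, where an exon of a shorter gene can count as intron. How far this bears on the shares was not tested. These peaks come from the same library and peaks of 1 gene share their RNA, so the shares are set side by side without a test. Intron held the midpoint of 29.2% of the peaks in the 10 genes (Wilson 95% CI 14.9 to 49.2) and of 58.4% of the other peaks. Coding exons held 45.8% (95% CI 27.9 to 64.9) and 25.3%, the 5' UTR 12.5% and 3.07%, and the 3' UTR 12.5% and 13.3%. A splice site lay within 66.7% of the peaks (95% CI 46.7 to 82.0) and within 40.8% of the others. The start codon lay in 4 of the 24 peaks (16.7%), those of PCNA, CDC25A, CCNB2 and STAG1, and in 4.24% of the others. No exon base was present in 20.8% and 41.9%. The centres of a peak and of its only whole internal exon lay a median of 16.5 bases apart in the 9 member peaks (2.5 to 94.5) and of 40.5 bases in 657 other peaks (quartiles 16.5 and 72.5). Peak edges appear to lie on a fixed grid, so distances of this size are poorly resolved. The median position along the transcript was 56.4% for the members and 59.7% for the others.

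**Figure D3:**
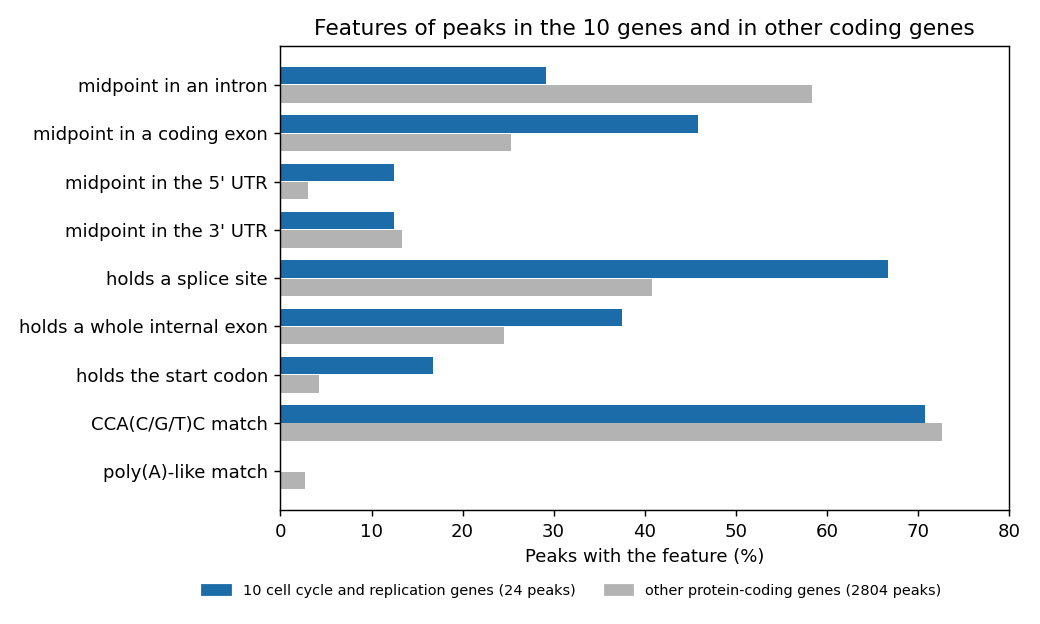
Bars give the percentage of peaks with each feature on the x axis, in blue for the 24 peaks of the 10 genes and in grey for the 2804 other peaks in protein-coding genes. The blue bar is shorter for a midpoint in an intron (29.2% and 58.4%), longer for a splice site (66.7% and 40.8%) and similar for a CCA(C/G/T)C match (70.8% and 72.6%).

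GC content set the member peaks that touched exon 1 apart from the rest. It did not separate those with other exon bases from those with none, whose medians were 39.9% and 38.0%. The 5 peaks that touched exon 1 had 62.0% in PCNA, 66.8% in CCNB2, 73.5% in TFDP2, 74.0% in CDC25A and 74.5% in STAG1. All 5 lay above every one of the other 19 member peaks, which ranged from 28.8% in STAG1 peak 4866 to 59.8% in MCM5 peak 3284. This difference was seen outside the 10 genes too, with a median of 70.3% in 181 other peaks that touched exon 1 and 43.3% in the 2623 that did not. Within peaks that contain a whole internal exon, the exon had a higher GC content than the intron bases of the peak in 7 of 9 member peaks and in 523 of 657 other peaks with 1 such exon. In STAG1 exon 15 the GC content was 43.2% against 26.2% for the intron around it. CDC45 and MCM5 were the exceptions among the members, with 53.7% in exon 13 against 56.7% and 56.7% in exon 3 against 60.1%.

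**Figure D4:**
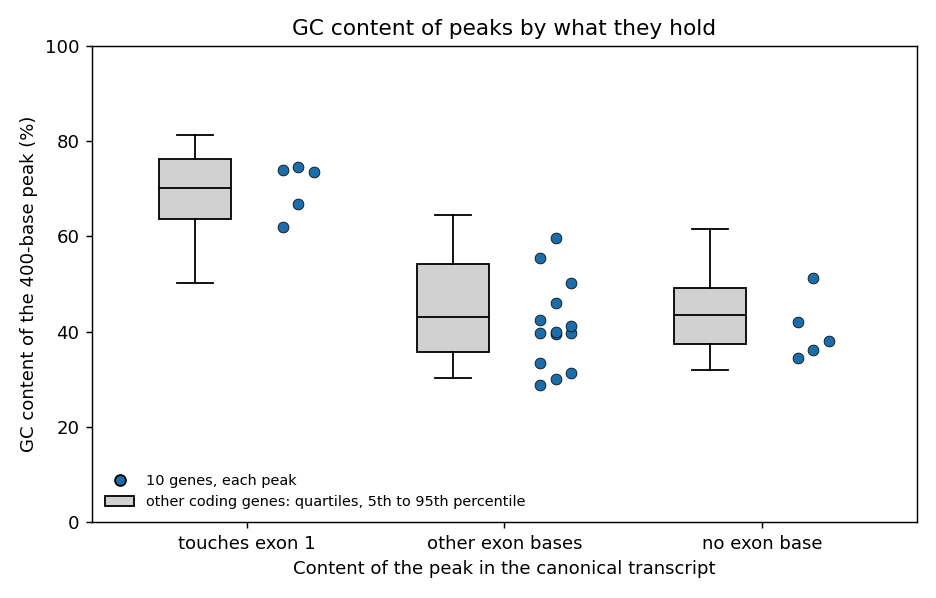
Points give the GC content in percent (y axis) of each member peak, and boxes the quartiles of the other peaks in protein-coding genes with whiskers from the 5th to the 95th percentile, split on the x axis by whether the peak touches exon 1, holds other exon bases or holds none. The 5 peaks on exon 1 sit at 62.0% to 74.5%, the 14 with other exon bases at 28.8% to 59.8% and the 5 without exon bases at 34.5% to 51.3%.

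The study names a poly(A)-like and a short C-rich motif for MTR4, and both were sought on the strand of each gene. The poly(A)-like motif was found in 0 of the 24 peaks, which allows a share of up to 12.5% at 3 counts of 24 and of 13.8% by the Wilson 95% limit, and in 2.75% of the other peaks. A run of 8 A was likewise found in 0 of 24 and in 7.77% of the others. The short motif was searched as CCA followed by C, G or T and then C, with overlaps counted, and was found in 17 of the 24 peaks and in at least 1 peak of each gene, 38 matches in all. The share was 70.8% (Wilson 95% CI 50.8 to 85.1), close to the 72.6% of the other peaks. The other way to read the study's notation, as CCAG followed by C, G or T and then C, left 6 peaks (25.0%) and 42.9% of the others.

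In STAG1 and BUB1B the matches lay mostly in the peaks without an exon. Their 4 peaks without exon bases held 15 matches, and their 8 peaks with exon bases held 3. STAG1 peak 4863 alone held 7, the most of the 24 peaks, while peaks 4864, 4865 and 4866 held 0. The bases around the 3 matches of BUB1B peak 1869 are printed as an example of a peak without an exon, with each match in capitals, and matches can share a base.
BUB1B intron 8, chr15:40485335-40485491: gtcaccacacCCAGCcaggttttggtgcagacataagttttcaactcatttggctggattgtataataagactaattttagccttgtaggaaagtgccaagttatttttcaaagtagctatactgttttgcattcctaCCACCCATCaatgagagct
At least 100 bases of STAG1 peak 4863 recurred at 90% identity or more at 77 other places of the genome, and of BUB1B peak 1865 at 1 other place, whereas BUB1B peak 1869 had none. In all, 20 of the 24 peaks had no such place. Over the other protein-coding genes the median was 1 match both for peaks with and for peaks without exon bases. Outside these 2 genes the pattern was not seen. The only other member peak without exon bases, MCM5 peak 3290, held 0 matches. Among those with exon bases, MCM5 peak 3284 held 5 matches, 2 of them wholly within an exon, and the PCNA peak 4, all of them within exon 1.

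The pyrimidine-rich motifs TCTTC and CTCTCT, of the kind that the splicing regulator PTBP1 is known to bind, were counted in the same way because the study links MTR4 to PTBP1. TCTTC was present in 15 of 24 peaks (62.5%, Wilson 95% CI 42.7 to 78.8) and in 42.7% of the other peaks, and it occurred in 9 of the 10 genes, PCNA being the exception. CTCTCT was present in 3 peaks (12.5%), of MCM2 and STAG1, and in 14.5% of the others. In STAG1 peak 4865 it occurred 2 times, and the printed sequence of exon 10 shows a run of it just before the exon. These matches are letters in the window and not shown sites of binding.

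Finally, the 10 genes were set beside the rest of their pathways. A list of 175 genes in 8 groups by role was drawn up with the results of earlier work on these data known. Of these, 20 held a peak (11.4%), the 10 members included, which were chosen for it. All 20 were among the 44 listed genes on the 6 chromosomes with at least 20 peaks (45.5%). Without the members, 10 of 165 genes held a peak (6.06%, beside 6.97% of all protein-coding genes). On the 6 chromosomes these were 10 of 34 (29.4%, beside 32.1%). Leaving out genes chosen for a peak lowers the share, and keeping them raises it. Neither share can thus be set against the background. The enrichment of cell cycle pathways that the paper reports was not tested. The 131 listed genes on the other chromosomes, which have few or no peaks, held 0, so most of the pathway could not be assessed. The origin and helicase group had a peak in 5 of 26 genes, MCM2, MCM5 and CDC45 with TOPBP1 and TICRR, factors that help origins to fire. The fork group had one in 3 of 32, PCNA with RFC4, a subunit of the clamp loader, and DNA2, a nuclease of the fork. Cohesin and its regulators had STAG1 and WAPL, which releases cohesin, in 2 of 18. The checkpoint and mitosis group had BUB1B, KNL1, the kinetochore scaffold that BUB1B is recruited to, and AURKA, a mitotic kinase, in 3 of 30. The E2F and RB group had TFDP2 and MYBL2, a transcription factor of late cell cycle genes, in 2 of 19, the cyclin and kinase group had CCNB2, CDK6 and CDC25A in 3 of 21, and the DNA damage checkpoint had the kinase ATR and its partner ATRIP in 2 of 13. The group of kinase inhibitors and ubiquitin ligases had 0 of 16, of which 2 lie on these 6 chromosomes.

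On the same 6 chromosomes, 24 pathway genes had no listed peak. Among them were MCM7 of the helicase, SMC3 of cohesin, BUB3 and MAD1L1 of the checkpoint, the clamp loader subunit RFC2, CDK1, and MCM10, which is not a subunit of the ring. Peaks were thus present in some subunits of a complex and not listed in others. MCM7, MAD1L1 and RFC2 lie on chromosome 7, where 4.08% of coding genes held a peak, beside 49.1% on chromosome 3 and 53.8% on chromosome 22. These absences therefore cannot be told apart from the scarcity of peaks on that chromosome. SMC3, BUB3, CDK1 and MCM10 lie on chromosome 10, for which no such share is given here, so their absences cannot be judged either. The 10 pathway genes with a peak that are not members held 24 peaks. ATR held 7 of these, each with exon bases, and MYBL2 held 3, each with its midpoint in a coding exon. Exon bases were present in 21 of the 24, beside 79.2% of the member peaks and 58.1% of the 2804 peaks in other protein-coding genes. A high share with exon bases was thus not particular to the 10 members. The list does not carry read depth, so little RNA of a gene and little capture of that RNA cannot be told apart.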

How the data were processed

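RNA from nuclei of PLC/PRF5 cells that carried MTR4-HA was captured with anti-HA antibody or IgG and sequenced, 1 library each. Per the labels and the study's methods, the authors trimmed adapters, mapped reads to hg19 with TopHat2 2.0.13 and called peaks with RIPSeeker. Its settings and the role of the IgG library are not given in the sources used here. The deposited list gives each peak a position, a name, a strand and a score. The authors' score was 60 at 3298 peaks, all 24 member peaks included, and 1 at the other 6, so peaks were not ranked by it. The strand is + throughout and was not used. Every peak is 400 bases wide and no depth is given. Intervals therefore cover counting within the list only, and PCR reads are not independent molecules.

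Positions were read as BED, printed counting from 1. The deposited starts may already count from 1, so a peak edge, and base counts or distances taken from it, may be shifted by 1 base. Beyond this shift, the starts of the member peaks on chromosomes 3 and 22 share the same last digits. Peak edges thus appear to be edges of windows on a fixed grid. Base counts and distances describe these windows and do not place the captured RNA to the base. Positions were compared with GRCh37 (the hg19 build) and GENCODE release 44 mapped to it, using the transcript tagged as canonical and 1 gene per symbol. Another peak was assigned to the longest protein-coding gene whose canonical transcript holds its midpoint. Sequences come from GRCh37. Similar sequence elsewhere was sought with BLAST+ 2.17.0 (megablast, at least 100 bases at 90% identity). Scripts ran in Python 3.11.15, and the classification and motif search were checked on simulated data. Members and gene lists were chosen with earlier results of these data known. The genes named are the members, the listed pathway genes with a peak and any gene overlapping a member peak. Pathway genes without a peak were named as examples after their values were seen. No test was run, because the design has no replicates. The alternatives changed the overlap rule, transcripts, score, motif reading and strand.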

Additional observations from a re-analysis of the deposited data

How the results depend on the processing

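Of 16 alternatives over 7 results, 14 stayed within 1.5 times the count or within 1 SD of the spread over the peaks, and 2 moved. The number of peaks in the 10 genes was 22 to 24 and that of midpoints in an intron 5 to 7 over their alternatives, and 20 pathway genes held a peak under each. Read as CCAG(C/G/T)C, the short motif was present in 6 peaks in place of 17. The poly(A)-like motif, found in 0 peaks on the strand of the gene, was found in 3 when both strands were searched. No paired analysis was possible because there was a single library per antibody and the list holds no values by library. Since depth is unknown, weakly captured RNAs may be missing from the list.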

Other observations

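Peak numbers rise with position on each of the 5 chromosomes that carry the 10 genes, so numbers without a listed position can be placed between their neighbours. In MCM5, 5 numbers (3285 to 3289) fall in the 20000 bases between the listed peaks 3284 and 3290. In BUB1B, 3 numbers are without a position, 1867 in the 10940 bases between peaks 1866 and 1868, and 1870 and 1871 in the 24275 bases between peaks 1869 and 1872. In the other genes with more than 1 peak no number is skipped, and the 6 peaks of STAG1 are numbered 4863 to 4868 without a gap. These 8 numbers are listed nowhere else, and the reason was not tested.

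On the strand opposite to the gene, the poly(A)-like motif occurred 1 time in each of 3 peaks, in the 3' UTR of CDK6 (peak 5361), in intron 21 of STAG1 (peak 4863) and in intron 8 of BUB1B (peak 1869). The nearest listed peaks outside the 10 genes lay 4179 bases upstream of CDC45, 6077 bases downstream of STAG1 and 12326 bases upstream of MCM5. No peak was near the limit of 1 shared base. The smallest overlap was that of CCNB2 peak 2210 with 327 of its 400 bases in the gene, TFDP2 peak 4896 had 385, and the other 22 peaks lay wholly within.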
